A study of Homo sapiens with 4 samples.

Results

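MATR3 knockout (KO) clone 1 and KO clone 5 are 2 purchased clones of HAP1, a near-haploid adherent human line that goes back to the chronic myeloid leukaemia line KBM-7. They were taken by their clone numbers in the deposited count table, with 1 library per clone, so 2 of the 4 libraries of the series are clone libraries. The other 2 libraries, called WT A and WT B, are wild-type (WT) HAP1 cells of clone 4, bought with the KO clones, and the labels name no treatment. The libraries are cDNA of total RNA, amplified by PCR and sequenced as long reads on a Nanopore MinION. The sources used here do not say where the MATR3 gene was cut in each clone. The difference between the clones has no replicate, so it carries no p-value; the difference between the WT libraries served as the range seen within 1 genotype.

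MATR3 encodes matrin 3, a protein of the inner nucleus that binds RNA and DNA and takes part in splicing, RNA retention and RNA stability. A knockout clone grows from a single edited cell. Clones of 1 edit can therefore differ in off-target cuts, in older mutations of the founder cell and in stable expression states, besides the edit itself. The title of the series names the cGAS and STING pathway, in which the enzyme cGAS senses DNA in the cytosol and the adaptor STING passes the signal on to interferon-stimulated genes.

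KO clone 1 held 3121759 counts and KO clone 5 held 4024026, and WT A and WT B held 3509906 and 5303199. Of 60662 listed genes 26477 had a count, and 8501 with a mean of at least 20 counts per library were measured. A measured gene had a median of 69 counts in clone 1, 79 in clone 5, 65 in WT A and 107 in WT B. Ribosomal protein genes took 22.3% of the counts in clone 1, 25.5% in clone 5 and 24.3% to 25.7% in the WT libraries. The KO columns carry another date tag than the WT columns, so genotype and date cannot be told apart, whereas both clones share 1 tag. The WT columns are tagged differently, WT A with FACS and WT B with test, so the WT libraries may differ in handling and the range they give may be wider than that of like cultures. WT B also stood apart from WT A at pseudogenes. Processed pseudogenes are copies of mRNAs in the genome. Of the 37 genes at least 4-fold higher in WT B than in WT A, 26 were annotated as pseudogenes, beside 186 of all 8501 measured genes. Genes were measured by their counts over all libraries, so genes held mainly by WT B, the deepest library, could enter.

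The count table lists 2 models of MATR3, and neither separates the KO libraries from WT. The model carried under its Ensembl identifier had 187 counts in clone 1, 204 in clone 5, 171 in WT A and 304 in WT B. The model listed by the symbol MATR3 had 27 counts in clone 1, 37 in clone 5, 41 in WT A and 43 in WT B, which is 8.15 and 9.46 scaled counts in 1000000 for clone 1 and clone 5, against 12.3 and 7.96 for WT A and WT B. A short edit that ends the protein need not lower the RNA, and the place of the edit is unknown, so the labels are not checked by these counts. Of 40 haematopoietic marker genes 4 were measured, GYPC, GATA2, HBA1 and RUNX3, each with reads in all 4 libraries. Of the 40, 16 had 0 counts in all 4 libraries, among them PTPRC, CD34, SPI1 and GATA1.

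The clones differed from each other by more than the WT libraries did at 5159 of the 8501 measured genes (60.7%). Pairs that differ alike would give an even split. The libraries differ in depth, and this share was not taken at equal depth. Levels are given as CPM, the counts of a gene per 1000000 counts of the library after its size was scaled by the trimmed mean of M-values (TMM), and differences as log2 values, clone 1 minus clone 5. The clone difference had an SD of 0.56 over the measured genes, against 0.48 for WT A minus WT B. With the libraries thinned to the smallest total, the SDs were 0.56 and 0.47. The median size of the clone difference without sign was 0.38, against 0.26 for the WT pair. Clone 1 was at least 2-fold higher at 357 genes (4.2%) and clone 5 at 249 (2.93%), whereas WT A was at least 2-fold higher at 61 genes (0.718%) and WT B at 273 (3.21%). At 4-fold the counts were 13 genes (0.153%) with clone 1 higher and 5 (0.0588%) with clone 5 higher, against 0 (0.0%) with WT A higher and 37 (0.435%) with WT B higher. Each clone lay at its own distance from WT: the SD was 0.85 for clone 1 against WT A and 0.73 against WT B, and 0.63 and 0.59 for clone 5. With pseudogenes left out, a setting chosen after seeing the data, the SD was 0.56 between the clones and 0.45 between the WT libraries.

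**Figure D1:**
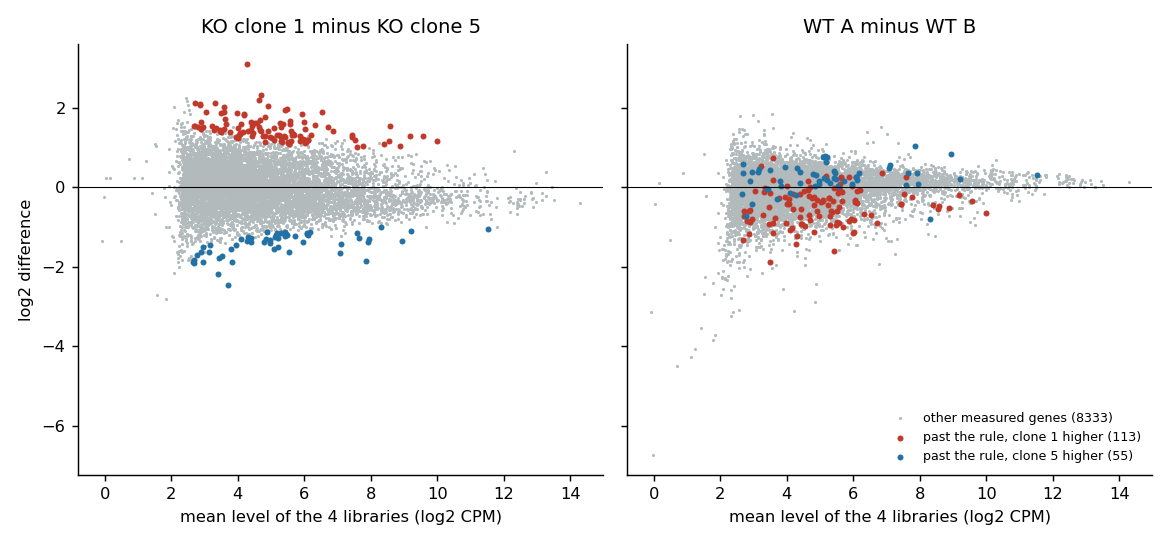
Log2 differences of the 8501 measured genes against their mean level, KO clone 1 minus KO clone 5 on the left and WT A minus WT B on the right. Red and blue points mark the 113 and 55 genes past the rule for the clone difference; on the right the same genes lie mostly inside the WT cloud, and the grey points at low level far below 0 are genes held mainly by WT B.

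A gene was counted as differing between the clones when the difference was at least 2-fold, larger than the WT pair's own difference at that gene, and larger than 99% of the WT differences among genes of like level. This rule took 168 genes: 113 were higher in clone 1 (1.33% of the measured genes) and 55 were higher in clone 5 (0.647%). By the same 2-fold and 99% limits, the WT difference itself was past at 84 genes, 12 with WT A higher and 72 with WT B higher, which is the share the limit sets. None of the 168 genes lay in the lowest of 10 bins of level, where the WT range reached 3.12 on the log2 scale; with pseudogenes left out it was 1.92 there, and 141 and 77 genes passed in all, 8 of them in the lowest bin. The split of directions rests on the scaling. With no scaling factor, which moves the clone difference of the median gene up by 0.13 on the log2 scale, 145 genes were higher in clone 1 and 24 in clone 5, and with upper-quartile scaling the counts were 108 and 106. Folds just inside the limits began at a log2 difference of 1.00 in size, and 438 further genes differed at least 2-fold without passing.

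Among genes with at least 40 counts in the higher clone, PTMAP5 showed the largest difference of those higher in clone 1. It is a processed pseudogene of PTMA, the gene of the small acidic nuclear protein prothymosin alpha, at chr13:81689911-81691072 on hg38, in GENCODE 44. PTMAP5 had 78.8 CPM in clone 1 and 8.95 in clone 5, against 8.37 in WT A and 22.8 in WT B, an 8.81-fold difference between the clones with a 95% exact counting interval of 6.17 to 12.9. Such intervals cover counting error only, and reads that come from PCR are not independent molecules. Clone 1 stood above the other 3 libraries, and clone 5 lay between the WT libraries. PTMA itself had 620 CPM in clone 1 and 350 in clone 5, against 651 and 663 in WT A and WT B, so at the parent gene clone 5 was the low library.

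The PTMAP5 copy is 97.9% identical to the PTMA coding sequence over 330 bases, with 7 differences. The read numbers of the copy and the parent may therefore depend on how single reads were placed. The transcripts outside the coding sequence were not compared, and the placement of reads was not examined. Reads at PTMAP5 made up 11.3% of the pair's reads in clone 1 and 2.50% in clone 5, against 1.27% in WT A and 3.32% in WT B. Copy and parent together had 699 CPM in clone 1 and 359 in clone 5, against 659 in WT A and 686 in WT B. Summed, the pair thus differed by 0.96 on the log2 scale between the clones, with clone 5 as the low library. The 90-base stretch with the most differences was read from GENCODE 44 transcripts on hg38, in coding direction. It is given for both genes to show how few bases separate them, with the differing bases in capitals; the PTMAP5 stretch lies at chr13:81690137-81690226 on the plus strand.
PTMA: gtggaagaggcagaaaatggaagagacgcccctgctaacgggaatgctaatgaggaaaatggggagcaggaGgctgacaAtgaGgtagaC
PTMAP5: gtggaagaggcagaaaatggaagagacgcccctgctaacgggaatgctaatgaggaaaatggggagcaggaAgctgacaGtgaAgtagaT

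Of the 168 genes, 5 of the 113 higher in clone 1 and 3 of the 55 higher in clone 5 were annotated as pseudogenes. Over all 8501 measured genes there were 186. The counts past the rule are small, and whether the shares differ was not tested. UPF3AP2, a copy of the nonsense-mediated decay gene UPF3A, had 50.4 CPM in clone 1 and 13.6 in clone 5, against 6.88 in WT A and 13.0 in WT B. Its parent UPF3A had 109 CPM in clone 1, 98.7 in clone 5, 96.9 in WT A and 103 in WT B, so the libraries differed at the copy and hardly at the parent. RPS23P8 on the X chromosome is a copy of the ribosomal protein gene RPS23 and held most of the pair's reads. RPS23P8 had 783 CPM in clone 1 and 346 in clone 5, against 225 in WT A and 325 in WT B, whereas RPS23 had 61.9 CPM in clone 1, 56.5 in clone 5, 42.5 in WT A and 68.7 in WT B. Summed with its parent, the pair had 845 CPM in clone 1 and 403 in clone 5, against 267 and 394 in the WT libraries.

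Among the copies higher in clone 5, the sum over copy and parent kept most of the difference. EEF1A1P5 is a copy of EEF1A1, the gene of translation elongation factor alpha. At 99.7% identity over the 1386 bases of the coding sequence, reads of the copy and the parent may be hard to separate. The placement of reads was not examined here either. EEF1A1P5 had 302 CPM in clone 1 and 649 in clone 5, against 838 in WT A and 717 in WT B. The copy and its parent together had 340 CPM in clone 1 and 706 in clone 5, against 888 in WT A and 772 in WT B, with clone 1 below the other 3 libraries. The 90-base stretch with the most differences of this pair has 1, in capitals; the EEF1A1P5 stretch lies at chr9:133019690-133019779 on the plus strand.
EEF1A1: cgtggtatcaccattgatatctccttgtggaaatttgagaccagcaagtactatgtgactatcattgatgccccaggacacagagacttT
EEF1A1P5: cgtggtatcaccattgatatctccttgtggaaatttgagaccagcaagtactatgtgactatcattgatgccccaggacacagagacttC

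RPS2 and RPLP0 with their copies RPS2P46 and RPLP0P6 went the same way. RPS2 and RPS2P46 together had 398 CPM in clone 1 and 996 in clone 5, against 1073 in WT A and 715 in WT B. RPLP0 and RPLP0P6 together had 886 CPM in clone 1 and 1651 in clone 5, against 2156 and 1952 in the WT libraries. In both pairs clone 1 was the lowest library, and clone 5 stood within or near the WT values. These pairs were looked up after the genes past the rule were seen.

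Of the protein-coding genes higher in clone 1, CREB3L2 had the largest difference. It encodes a transcription factor held in the membrane of the endoplasmic reticulum and lies on the minus strand at chr7:137874979-138002086. CREB3L2 had 82.1 CPM in clone 1 and 16.4 in clone 5, against 13.5 in WT A and 24.1 in WT B, a 5.02-fold difference (95% interval 3.81 to 6.70). CALM3, 1 of the genes of the calcium sensor calmodulin, had 89.7 CPM in clone 1 and 21.5 in clone 5, against 17.9 in WT A and 22.6 in WT B. SRSF1, a splicing factor of the serine and arginine rich family, had 150 CPM in clone 1 and 37.9 in clone 5, against 18.5 and 36.1 in the WT libraries. In these 3 genes clone 5 lay within or next to the WT values and clone 1 alone stood high.

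TMEM18, which encodes a membrane protein, had 160 CPM in clone 1 and 41.2 in clone 5, against 12.6 in WT A and 38.7 in WT B, with a WT difference of -1.61 on the log2 scale. TMEM254 had 46.2 CPM in clone 1 and 11.2 in clone 5, against 4.19 in WT A and 9.45 in WT B. C8orf59 had 24.2 CPM in clone 1 and 5.63 in clone 5, against 3.59 and 5.56 in WT A and WT B. The order clone 1, clone 5, WT B, WT A was common to these genes. The noncoding RNA PCBP2-OT1 had 53 counts in clone 1 and 14 in clone 5, against 14 and 38 in WT A and WT B, and so rests on few reads.

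At 3 of the 12 genes with the largest excess in clone 1, clone 5 stood apart from WT instead. BOLA3, which serves the assembly of iron-sulfur clusters in mitochondria, had 49.5 CPM in clone 1 and 10.7 in clone 5, against 26.0 in WT A and 27.0 in WT B. PPP2R5D, which directs the phosphatase PP2A to its substrates, had 19.3 CPM in clone 1 and 4.35 in clone 5, against 10.2 and 11.1 in the WT libraries. At both genes the WT libraries were close together, with clone 1 above them and clone 5 below. CLN6, a membrane protein of the endoplasmic reticulum whose loss causes a lysosomal storage disease, had 12.4 CPM in clone 1 and 2.81 in clone 5, against 5.68 and 13.1 in WT A and WT B.

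**Figure D2:**
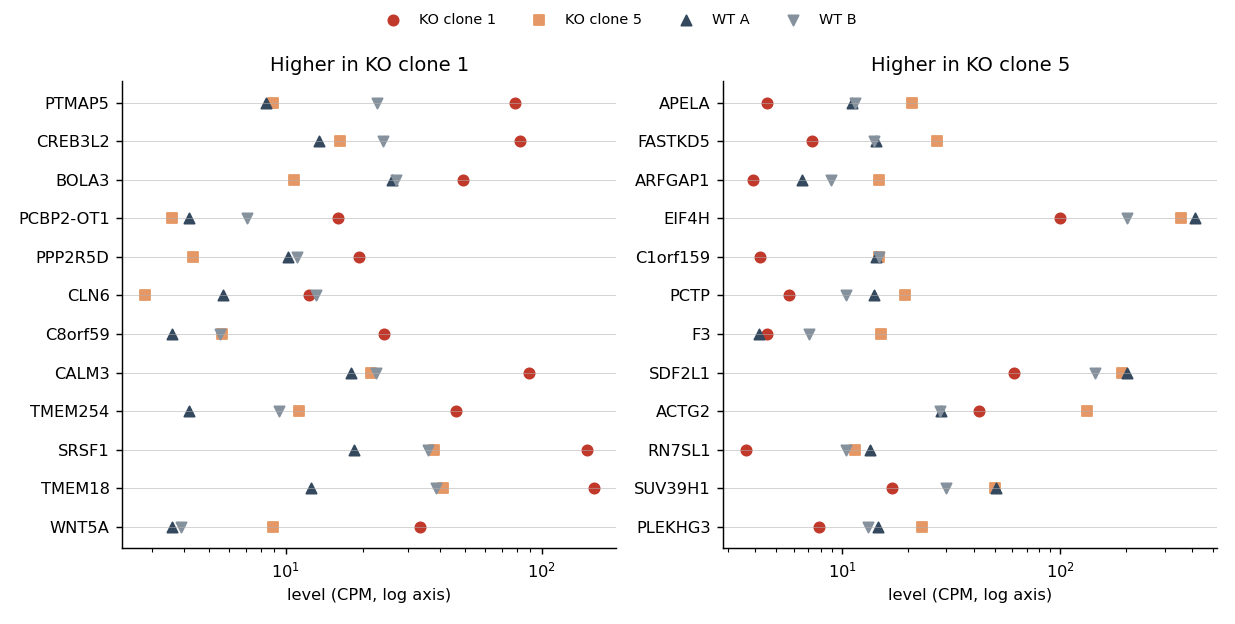
Levels in CPM, on a log axis, of the 12 genes with the largest excess in KO clone 1 (left) and the 12 with the largest excess in KO clone 5 (right) among those past the rule with at least 40 counts in the higher clone. Each point is 1 library; clone 1 stands right of the other libraries for PTMAP5 at 78.8 CPM and left of them for SDF2L1 at 61.3 CPM, whereas for ACTG2 clone 5 stands apart at 132 CPM.

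In the other direction, among genes with at least 40 counts in the higher clone, the largest difference was at APELA, which encodes a peptide ligand of the apelin receptor, at chr4:164877178-164898965. APELA had 4.53 CPM in clone 1 and 21.0 in clone 5, against 11.1 in WT A and 11.5 in WT B, which makes clone 5 4.63-fold higher (95% interval 2.65 to 8.65). FASTKD5, a factor of mitochondrial RNA processing, had 7.25 CPM in clone 1 and 27.1 in clone 5, against 14.3 and 14.1 in WT A and WT B. ARFGAP1, which switches off the Golgi GTPase ARF1, had 3.92 CPM in clone 1 and 14.8 in clone 5, against 6.58 and 8.89 in the WT libraries. For these 3 genes the clones lay on opposite sides of both WT libraries, and at FASTKD5 and ARFGAP1 the distances from the WT mean were nearly equal, -0.95 and 0.93 on the log2 scale for clone 1 and clone 5 at FASTKD5. The counts behind them were low, with 15 for APELA, 24 for FASTKD5 and 13 for ARFGAP1 in clone 1.

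EIF4H, a helper of the translation initiation helicase, was the gene with the most reads among the 12 of this direction. It had 99.4 CPM in clone 1 and 358 in clone 5, against 413 in WT A and 201 in WT B. SDF2L1, a chaperone complex member of the endoplasmic reticulum, had 61.3 CPM in clone 1 and 192 in clone 5, against 201 and 143 in the WT libraries. SUV39H1, a histone methyltransferase of heterochromatin, had 16.9 CPM in clone 1 and 50.1 in clone 5, against 50.8 in WT A and 29.8 in WT B. Clone 1 was the low library at all 3 genes, and clone 5 stood inside the WT values or just outside them. The same held for C1orf159, with 4.23 CPM in clone 1 and 14.8 in clone 5, against 14.3 and 14.8 in WT A and WT B, and for the signal recognition particle RNA RN7SL1, with 12 counts in clone 1 and 45 in clone 5, against 45 and 56.

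F3 and ACTG2 were the genes of this set that stood out in clone 5 instead. F3 encodes tissue factor, the starter of blood clotting, and had 4.53 CPM in clone 1 and 15.1 in clone 5, against 4.19 in WT A and 7.04 in WT B. ACTG2 encodes the gamma actin of gut smooth muscle. It had 42.6 CPM in clone 1 and 132 in clone 5, against 28.4 in WT A and 27.96 in WT B, a 3.10-fold difference between the clones (95% interval 2.57 to 3.76). PCTP, a phosphatidylcholine transfer protein, had 5.74 CPM in clone 1 and 19.4 in clone 5, against 14.1 and 10.4 in the WT libraries. PLEKHG3 had 7.85 CPM in clone 1 and 23.3 in clone 5, against 14.7 in WT A and 13.2 in WT B.

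Among all 168 genes, clone 1 was most often the clone away from WT. These genes were picked for a large difference between the clones, so the counts describe only them. Over all measured genes clone 1 was at least 2-fold from WT A at 19.4% and from WT B at 12.6%. For clone 5 the shares were 9.22% and 6.47%. A clone was counted as away when it lay at least 2-fold from the mean of the WT log2 levels. Clone 1 alone was away at 122 genes, 86 of those higher in clone 1 and 36 of those higher in clone 5. Clone 5 alone was away at 8 genes: CEP350, BOLA3, PPP2R5D, DNAJC9 and CLN6 were lower in clone 5, and RPS6KA1, F3 and ACTG2 were higher in it. Both clones were away to the same side at 5 genes, to opposite sides at 0, and neither was at 33. Clone 1 lay above both WT libraries at 111 of the 113 genes higher in it and below both at 52 of the 55 others. Against WT B alone the count for clone 1 was 105, and against WT A alone it was 119. The count for clone 5 ran from 8 to 11 under the settings tried.

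**Figure D3:**
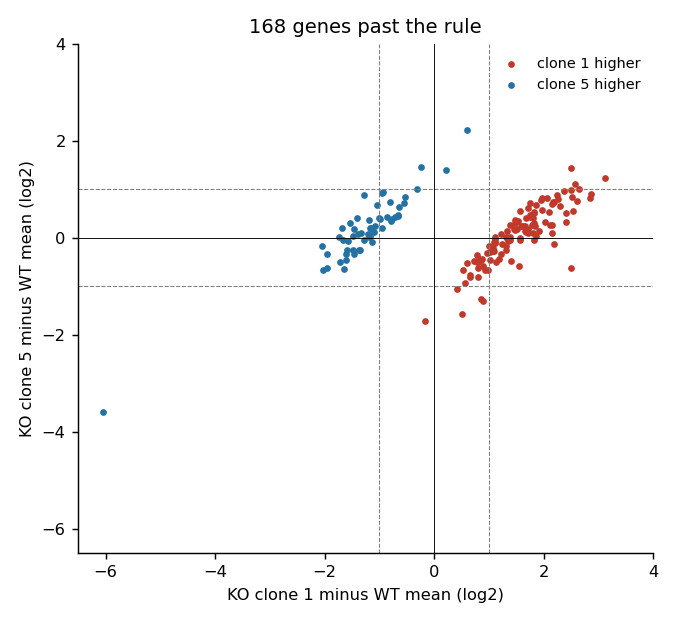
Distance of each clone from the WT mean in log2 units for the 168 genes past the rule, clone 1 on the horizontal and clone 5 on the vertical axis; dashed lines mark a 2-fold distance. Most points lie outside the dashed lines along the clone 1 axis and inside them along the clone 5 axis, as at 122 genes, and the point far to the lower left is the gene model AC091493.1.

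Among the genes past the rule the WT libraries themselves were ordered along the clone difference. WT B was higher than WT A at 99 of the 113 genes higher in clone 1, and WT A was higher at 46 of the 55 genes higher in clone 5. The median WT A minus WT B difference was -0.45 and 0.24 in these sets, against 0.02 over all measured genes. Over all 8501 measured genes the clone difference and the WT difference had a Spearman correlation of -0.26; the points are genes of the same 4 libraries and are not independent. Clone 1 was the highest and WT A the lowest library at 72 of the 113 genes, and clone 1 was the lowest and WT A the highest at 23 of the 55. These genes were picked for a large clone difference, and the shares of all measured genes in these orders were not counted. GYPC, the gene of the red cell membrane protein glycophorin C, had the most reads of the genes past the rule with clone 1 higher, with 2073 CPM in clone 1 and 925 in clone 5, against 594 in WT A and 932 in WT B. FAM32A had 1795 CPM in clone 1 and 725 in clone 5, against 454 and 574 in WT A and WT B. VBP1, a subunit of the prefoldin chaperone, had 1127 CPM in clone 1 and 461 in clone 5, against 428 and 487 in the WT libraries.

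WNT5A, a secreted ligand of the Wnt family, was among the 5 genes at which both clones were away from WT to the same side. It had 33.5 CPM in clone 1 and 8.95 in clone 5, against 3.59 in WT A and 3.89 in WT B, so clone 1 was 3.74-fold above clone 5 (95% interval 2.54 to 5.64). RB1, the retinoblastoma tumour suppressor, had 213 CPM in clone 1 and 68.3 in clone 5, against 22.7 and 50.4 in WT A and WT B. SEC23A, a coat protein of vesicles that leave the endoplasmic reticulum, had 1323 CPM in clone 1 and 642 in clone 5, against 197 and 281 in the WT libraries. MEX3D had 34.4 CPM in clone 1 and 12.5 in clone 5, against 4.79 in WT A and 6.85 in WT B. All 4 genes were highest in clone 1, with clone 5 between clone 1 and WT. The gene model AC091493.1 had 3 counts in clone 1 and 22 in clone 5, against 210 in WT A and 418 in WT B, so both clones held few reads of a transcript that WT cells held in number.

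Genes that distinguish both KO clones from WT were set side by side by clone. The edgeR quasi-likelihood test of both KO libraries against both WT libraries took 230 of 10505 genes at an adjusted p under 0.05 (2.19%), with 166 higher and 64 lower in KO. It served only to choose genes, and it favours genes at which the clones are alike. Of these genes 177 were measured here, and the clones differed at least 2-fold at 22 of them, 16 with clone 1 higher and 6 with clone 5 higher, beside 7.13% over all measured genes. By the full rule 6 were higher in clone 1 and 1 in clone 5, beside 1.33% and 0.647% over all. The median size of the clone difference without sign was 0.47 in these genes, beside 0.38 over all. The 138 measured genes higher in KO had a median distance from WT of 1.79 on the log2 scale in clone 1 and 1.35 in clone 5, and clone 1 was the farther clone at 103 of them. The 39 measured genes lower in KO had medians of -1.90 in clone 1 and -1.87 in clone 5, and clone 1 was the farther clone at 22. The share of all measured genes with clone 1 farther was not counted. Over all of them the SD of clone 1 was 0.85 against WT A and 0.73 against WT B, beside 0.63 and 0.59 for clone 5.

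Interferon-stimulated genes went both ways between the clones. Of 59 listed genes 23 were measured, with a median difference of -0.06, against 0.10 between the WT libraries and -0.01 over all measured genes; 11 were higher in clone 1 and 12 in clone 5. None of the 23 was higher in clone 1 by the rule, and 1, LGALS3BP, a secreted glycoprotein, was higher in clone 5, beside 0.647% over all measured genes. LGALS3BP no longer passed after centring on transcript length and GC content, with -0.85. It had 39.9 CPM in clone 1 and 89.3 in clone 5, against 84.6 in WT A and 70.2 in WT B. ISG15, a ubiquitin-like protein induced by interferon, had 167 CPM in clone 1 and 197 in clone 5, against 68.8 in WT A and 52.4 in WT B. Both clones thus lay above both WT libraries, with a log2 difference of -0.24 between them, against 0.39 between the WT libraries. IFI6 had 54.1 CPM in clone 1 and 52.9 in clone 5, against 48.1 and 34.3 in the WT libraries. CGAS, the DNA sensor, had 54 counts in clone 1 and 86 in clone 5, against 60 and 85. The STING gene, listed as TMEM173, had 2 counts in each clone and 6 and 4 in WT A and WT B, too few for a comparison. Of 20 measured genes of DNA and RNA sensing and of 10 measured NF-kB and inflammatory genes, 0 passed in either direction. Over all measured genes 1.33% were higher in clone 1 and 0.647% in clone 5 by the rule. The counts past the rule in the lists, here and below, were not tested against these shares. Of the 20 sensing genes 6 were higher in clone 1 and 14 in clone 5. Among them LY96 had 61.9 CPM in clone 1 and 25.6 in clone 5, against 2.69 in WT A and 6.85 in WT B. Its clone difference of 1.27 was smaller in size than its WT difference of -1.29. After centring LY96 passed, higher in clone 1, with 1.43.

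Cytosolic ribosomal protein genes were the largest group that leaned to clone 5. Of 82 measured genes 70 were lower in clone 1 and 12 higher, and their median difference was -0.33, against 0.16 between the WT libraries. By the rule 1 was higher in clone 1 and 2 were higher in clone 5, RPL3 and RPS2, beside 1.33% and 0.647% over all measured genes. RPL3 had 1646 CPM in clone 1 and 3415 in clone 5, against 4041 in WT A and 3234 in WT B. RPL23A went the other way, with 35.3 CPM in clone 1 and 14.3 in clone 5, against 14.7 and 27.96 in the WT libraries. The group's summed level was 210300 CPM in clone 1 and 262000 in clone 5, against 269500 and 239000 in WT A and WT B, so clone 1 was the lowest library. These are short transcripts, and after centring on transcript length and GC content the median was -0.14, against 0.12 between the WT libraries. Many genes of this group have near-identical pseudogenes, and their reads can be split.

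Several other groups had negative medians too. The 65 measured mitochondrial ribosomal protein genes had a median of -0.23 and 1 gene past the rule, MRPL10, which was higher in clone 5. The 30 measured proteasome genes had a median of -0.23 and the 54 nuclear genes of the respiratory chain -0.17, with 0 past the rule in both groups. After centring, these 3 medians were -0.03, -0.09 and 0.04, and MRPL10 no longer passed, with -0.87. Centred, MRPL20 of the mitochondrial ribosome passed with 1.44 and NDUFB2 of the respiratory chain with 1.12, both higher in clone 1. The 13 mitochondrially encoded mRNAs, which are short as well, had a positive median of 0.21, against -0.27 between the WT libraries. Glycolysis and hypoxia genes had a median of -0.31. By the rule 2 of 26, ENO2 and PGAM1, enzymes of lower glycolysis, were higher in clone 5, beside 0.647% over all measured genes. After centring the median was -0.09 and PGAM1 no longer passed, with -0.91. ENO2 had 129 CPM in clone 1 and 312 in clone 5, against 229 in WT A and 178 in WT B. PGAM1 had 19.02 CPM in clone 1 and 44.8 in clone 5, against 73.0 and 54.4 in the WT libraries.

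Wnt, TGF-beta and Notch pathway genes had the highest median among lists with at least 10 measured genes, 0.47 over 27 genes, against -0.03 between the WT libraries and 0.22 after centring. By the rule 1 of them, WNT5A, was higher in clone 1 and 1, the Notch target HES4, was higher in clone 5. HES4 no longer passed after centring, with -0.77. It had 28.1 CPM in clone 1 and 60.9 in clone 5, against 48.1 and 40.7 in WT A and WT B. Extracellular matrix and adhesion genes had a median of 0.30 over 22 genes, with 1 past the rule. That gene was TIMP2, an inhibitor of matrix metalloproteases, with 209 CPM in clone 1 and 58.1 in clone 5, against 25.7 in WT A and 45.0 in WT B.

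Genes of DNA methylation and chromatin silencing had a median of 0.29 over 40 genes, against 0.04 between the WT libraries and 0.13 after centring, and 29 of the 40 were higher in clone 1. ATRX, a chromatin remodeller, and EED, a subunit of Polycomb complex PRC2, were higher in clone 1 by the rule, and SUV39H1 was higher in clone 5. ATRX had 365 CPM in clone 1 and 146 in clone 5, against 111 in WT A and 149 in WT B. EED had 135 CPM in clone 1 and 59.3 in clone 5, against 52.0 and 55.0 in the WT libraries. The 188 measured zinc finger genes with a number in their symbol had a median of 0.14, or 0.03 after centring, with ZNF148 and ZNF358 past the rule, both higher in clone 1. Of 49 measured MATR3 partners and nuclear RNA-binding proteins, 0 passed in either direction and the median was 0.00. Over all measured genes 1.33% were higher in clone 1 and 0.647% in clone 5 by the rule. At these shares 0 of 49 does not set the list apart.

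Single members stood out in several other groups. CDKN1A, the cell cycle inhibitor p21 and a p53 target, had 21.4 CPM in clone 1 and 7.42 in clone 5, against 2.69 in WT A and 5.00 in WT B, and was the only 1 of 19 measured p53 targets past the rule. RUNX3, a transcription factor of blood and other lineages, had 26.9 CPM in clone 1 and 7.16 in clone 5, against 10.8 and 9.45 in the WT libraries. Of the 4 measured haematopoietic markers 3 were higher in clone 1, and HBA1 was higher in clone 5. HBA1 had 34 counts in clone 1 and 81 in clone 5, against 82 in WT A and 125 in WT B. TFAP2C, a transcription factor of germ cells and trophoblast, had 153 CPM in clone 1 and 47.6 in clone 5, against 22.4 in WT A and 31.5 in WT B. STMN3, a neuronal stathmin, had 900 CPM in clone 1 and 305 in clone 5, against 238 and 332 in the WT libraries. Most of the 13 measured neuronal markers went the other way, with 10 lower in clone 1 and a median of -0.21, and ENO2, also on that list, was higher in clone 5. CDKN1A, RUNX3, TFAP2C and STMN3 were each highest in clone 1. The mitochondrially encoded MT-ATP8, a subunit of ATP synthase, had 60.4 CPM in clone 1 and 21.0 in clone 5, against 17.9 and 16.1 in WT A and WT B; its reading frame overlaps that of MT-ATP6, so reads can be split between them. DNA replication and mitosis genes, with 45 and 47 measured, had 0 past the rule in either direction, beside 1.33% and 0.647% over all measured genes. In bulk RNA, fewer cells in a given state and less RNA per cell cannot be told apart.

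The stress and structural lists held a few genes each. Of 39 measured genes of the unfolded protein and ATF4 response, SDF2L1 was past the rule and the median was -0.17. HSPA4, a cytosolic chaperone, was past it among 29 heat shock chaperones, with 476 CPM in clone 1 and 232 in clone 5, against 130 in WT A and 155 in WT B, and no longer passed after centring. FASN, the fatty acid synthase, was the 1 gene of 31 of cholesterol and fatty acid synthesis, with 68.2 CPM in clone 1 and 28.1 in clone 5, against 25.1 and 48.5 in the WT libraries. Among 44 cytoskeleton and contractile genes, the actin binder PFN2 was higher in clone 1, and ACTG2 and PDLIM1 were higher in clone 5; PDLIM1 no longer passed after centring. Of 29 NRF2 and oxidative stress genes 0 passed, and 24 were lower in clone 1, with a median of -0.26 that was 0.01 after centring. Of 25 measured replication-dependent histone genes, HIST2H2AC passed, with 16.9 CPM in clone 1 and 41.4 in clone 5, against 67.9 in WT A and 40.2 in WT B, and no longer passed after centring. Of 5 measured epithelial markers 0 passed; KRT8, a keratin, had 39.0 CPM in clone 1 and 71.3 in clone 5, against 11.4 and 16.9 in the WT libraries, above them in both clones.

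**Figure D4:**
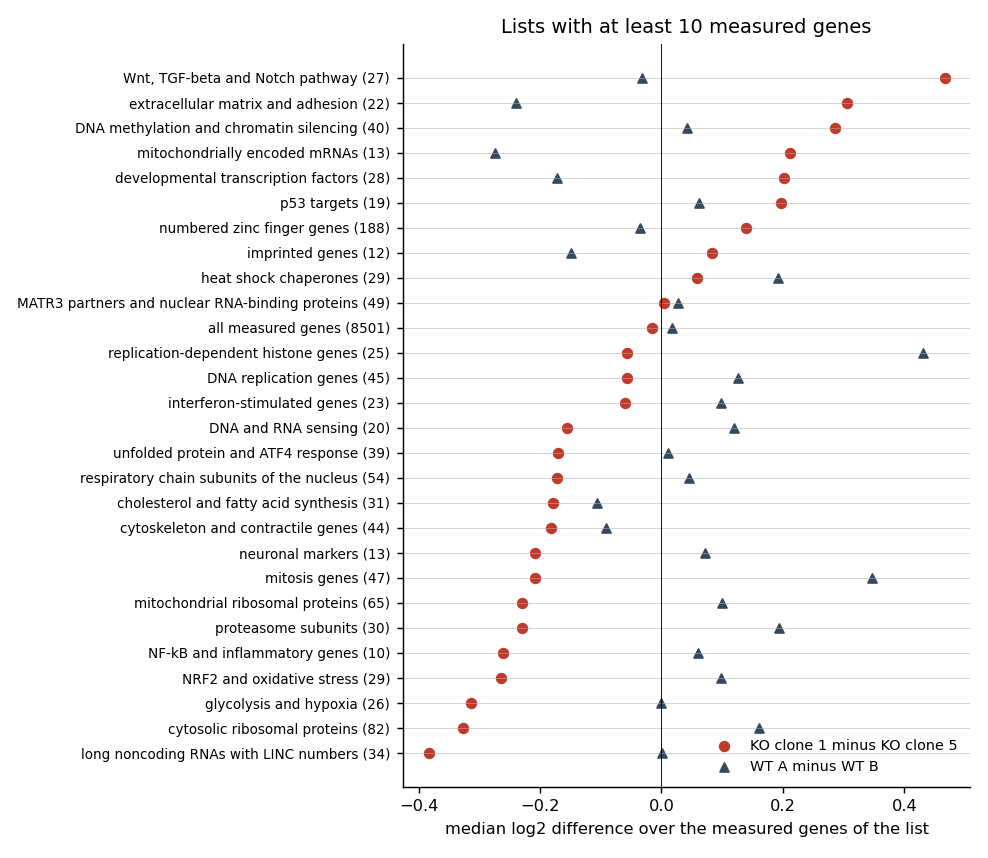
Median log2 difference over the measured genes of each list with at least 10 of them, with the number in brackets, for KO clone 1 minus KO clone 5 (red circles) and WT A minus WT B (dark triangles). The clone medians run from -0.38 for long noncoding RNAs to 0.47 for the Wnt, TGF-beta and Notch list, beside -0.01 for all measured genes; with no scaling factor each clone median would sit about 0.13 higher, and those from -0.06 to 0 would change sign.

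Transcript length moved with the clone difference. The measured genes were put into 5 equal bins by the length of their longest annotated transcript. In the bin of the shortest, with a median of 1470 bases, the median difference was -0.26, and in that of the longest, with a median of 8204 bases, it was 0.22. The WT pair had medians of 0.07 and -0.03 in these bins. Relative to each gene's mean over the libraries, clone 1 had medians of -0.22 and 0.15 there, and clone 5 had 0.04 and -0.04. WT A had 0.13 and -0.07, and WT B had 0.06 and -0.02. GC content moved with both pairs: from the lowest to the highest bin the clone median ran from 0.11 to -0.17 and the WT median from 0.13 to -0.09. Across 8230 genes the Spearman correlation of the clone difference was 0.28 with length and -0.17 with GC content, and that of the WT difference was -0.05 and -0.21. The genes higher in clone 1 by the rule had transcripts of 3894 bases at the median and the genes higher in clone 5 of 2138, against 3871 over all measured genes. Their median GC content was 45.1% and 56.4% in the same order, against 46.2% over all.

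**Figure D5:**
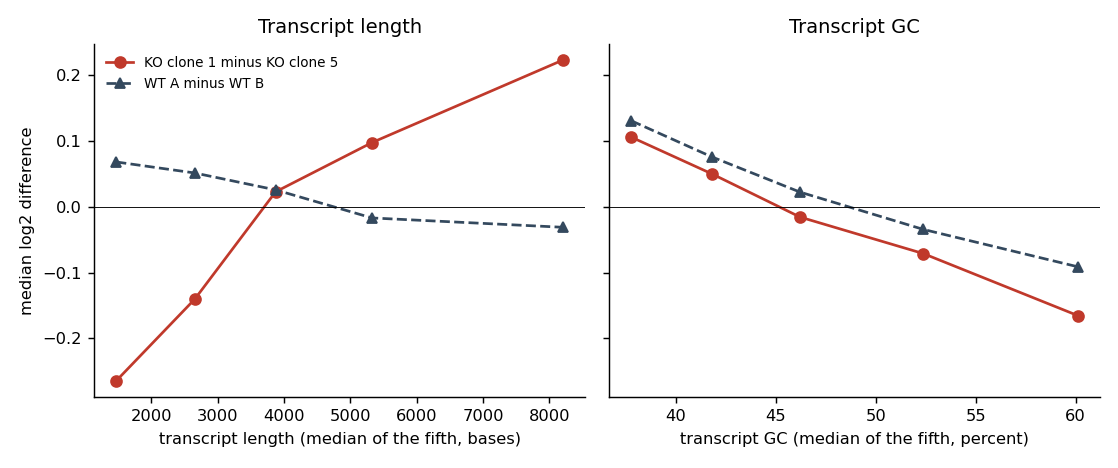
Median log2 difference over 5 equal bins of the measured genes by transcript length (left, bases) and by transcript GC content (right, percent), for KO clone 1 minus KO clone 5 (red) and WT A minus WT B (dark, dashed). Over length the clone line runs from -0.26 to 0.22 and the WT line from 0.07 to -0.03, whereas over GC content both lines fall.

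With each difference taken relative to genes of like length and GC content, a setting chosen after seeing the data, 143 genes were higher in clone 1 and 51 in clone 5. Of the 112 genes higher in clone 1 by the main rule that could be placed, 92 remained, and of the 54 higher in clone 5, 24 remained. EIF4H, SUV39H1, APELA and ACTG2 were among those that remained, with centred differences of -1.86, -1.36, -2.05 and -1.37. RPL3, RPS2 and EEF1A1P5 no longer passed, with -0.80, -0.98 and -0.83. ATRX no longer passed either, with 0.98, nor did RPS2P46 and RPLP0P6. What part length recovery has in the differences was not tested.

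No nuclear chromosome as a whole came near a 2-fold difference between the clones. HAP1 cells carry most chromosomes as a single copy, so the gain of a chromosome in 1 clone would double the copies of its genes. The chromosome medians ran from -0.12 on chromosome 20, over 237 genes, to 0.10 on chromosome 18, over 116 genes. On these chromosomes the WT medians were 0.03 and 0.08. The sign for chromosome 20 depended on the scaling: with no scaling factor its median was 0.0070. Among 7313 windows of 40 neighbouring genes, 88 had a median larger in size than the largest of the WT pair, 0.33, and they joined into 7 regions with folds of 1.13 to 1.32. The largest was chr2:179101678-200482264, from SESTD1 to SPATS2L, with a median of 0.40 over 40 genes, of which 27 were higher in clone 1, against 0.10 between the WT libraries. The region chr16:22910-2458854, from WASIR2 to CCNF, had a median of -0.37, but 61.3% GC and a median of -0.09 after centring. The 19 measured genes of the mitochondrial genome had a median of 0.35, against -0.24 between the WT libraries.

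No measured gene was at 0 counts in 1 clone with at least 10 counts in the other. Over all listed genes there were 7 of this kind: SLC23A1 and CCDC194 were at 0 in clone 5, and NR2E1, ETFBKMT, AL136418.1, RAB34 and RPS4XP3 were at 0 in clone 1. The highest count in the other clone was 12. Each of the 7 genes had reads in both WT libraries. At this depth a gene silent in 1 clone was not detectable where the other clone held fewer reads than these.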

How the data were processed

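The 4 libraries were prepared from HAP1 total RNA with a Nanopore PCR-cDNA kit, per the labels' protocols. The deposited table holds raw read counts per gene, not normalised. The submitters' processing notes name hg38, minimap2, SAMtools, Subread, DESeq and DESeq2 1.22.2; the sources used here give neither settings nor annotation nor the use of strand, so overlapping and antisense genes may share reads. The other deposited tables were not used. Count columns left unused numbered 0. WT columns carry no replicate number.

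Here, levels were log2 of (count + 0.5) over the TMM-scaled library size (edgeR 4.0.16, R 4.3.3), for genes with at least 80 counts in all. WT ranges were taken in 10 bins of mean level. Genes of both KO against both WT libraries came from edgeR's quasi-likelihood test with Benjamini-Hochberg adjustment; DESeq2 1.42.0 was an alternative. The labels name no separate cultures. Lengths, GC content and positions came from GENCODE 44, centring used running medians over 501 genes, and copies were aligned with edlib. The call rule was tried on simulated counts with planted changes much larger than 2-fold. The simulation held no length, GC or pseudogene differences between libraries, so it cannot speak for the 2-fold limit in these data.

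Named genes were MATR3, the 12 largest differences per direction among genes past the rule with at least 40 counts in the higher clone, the 3 most abundant per direction, up to 3 members of each of 33 lists and a few fixed genes. Pairs of pseudogene and parent, and the genes at which clone 5 alone or both clones were away from WT, were added after values were seen. The comparison and lists were chosen with earlier results of these data known.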

Additional observations from a re-analysis of the deposited data

Results flagged for a closer look

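Among the 12 genes per direction with the largest clone differences and at least 40 counts in the higher clone, 9 had one clone above and the other below both WT libraries. These differences were not tested, and with 1 library per clone no replicate speaks for them. The genes were picked for a large clone difference, and the share over all measured genes was not counted. With clone 1 above and clone 5 below WT, the log2 difference between the clones was 2.19 at BOLA3, 2.12 at PCBP2-OT1 and 2.12 at PPP2R5D. With clone 1 below and clone 5 above WT, it was -2.17 at APELA, -1.88 at FASTKD5, -1.88 at ARFGAP1, -1.77 at C1orf159, -1.73 at PCTP and -1.55 at PLEKHG3. At C1orf159 clone 5 lay only 0.03 from the WT mean, so the gene rests on clone 1 alone. At PCBP2-OT1 clone 5 and WT A each held 14 counts, so the place of clone 5 below WT rests on library size.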

How the results depend on the processing

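The counts of genes past the rule moved with the width of the WT range: with the largest WT difference as the limit 13 genes were higher in clone 1 and 8 in clone 5, and with the 95th percentile 270 and 197. At a 4-fold minimum they were 9 and 2. With no scaling factor 24 genes were higher in clone 5, with upper-quartile scaling 106 and with no count filter 90. The chromosome 20 median turned to 0.0070 with no scaling factor and to 0.17 with no count filter. With no count filter the SD was 1.09 between the clones and 1.11 between the WT libraries, so the order of the 2 pairs turned. The number of 40-gene windows past the WT range was 53 with no scaling factor, 38 with upper-quartile scaling and 0 with no filter, and 32 with windows of 20. Centring on length and GC content moved the ribosomal protein median to -0.14. With at least 20 counts required in the other clone, 0 genes were at 0 in a clone. Clone 1 alone was away from WT at 105 to 119 genes without either WT library, and 196 to 247 genes passed the KO against WT test then. Without WT A the split of that test was 91 higher and 156 lower in KO, against 166 and 64 with it; DESeq2 gave 139 and 32. None of the 30 genes named for their size or abundance changed direction in any setting, but thinned to the smallest total only 24 still passed: PCBP2-OT1, CLN6, C8orf59, ARFGAP1, C1orf159 and F3 did not. RPL3 and EEF1A1P5 did not pass with no scaling factor or with no count filter, nor did PLEKHG3 with no scaling factor or when a mean of 50 counts was required. The WT range itself cannot be had without either WT library. No paired analysis was possible because the KO columns carry clone numbers and the WT columns no number. In the lowest of 10 bins of level no gene passed the rule, and 8 passed with pseudogenes left out. The WT range there was 3.12 on the log2 scale, or 1.92 with pseudogenes left out. In the next bin, with pseudogenes kept, it was 1.47. What part pseudogenes, depth and the count filter have in the lack of calls was not tested.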

Other observations

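WT B differed from WT A at the measured pseudogenes. Genes were measured by their counts over all libraries, so pseudogenes held mainly by WT B, the deepest library, could enter. Medians of WT B against each clone are not given here. The 186 measured pseudogenes had a median WT A minus WT B difference of -0.58 on the log2 scale with an SD of 1.05, against -0.07 and 0.67 for clone 1 minus clone 5. GAPDHP1, a copy of the glycolytic gene GAPDH, had 51 counts in clone 1, 67 in clone 5, 61 in WT A and 737 in WT B, and TPI1P1, a copy of TPI1, had 30, 50, 36 and 509. All pseudogenes together took 4.45% of the counts in clone 1 and 5.12% in clone 5, against 5.27% in WT A and 5.65% in WT B. PTMAP5 was 1 of 2 pseudogenes at least 4-fold apart between the clones. The cause was not tested, and these genes were named after their values were seen.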
